A study of Danio rerio with 8 samples.

Results

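The baseline miRNA signal of unexposed zebrafish embryos was described from the 4 control arrays of a series of 8. These were the arrays titled as embryo control, replicates 1 to 4, and every zebrafish miRNA probe on the chip was included, 248 in all. The study microinjected the cyanobacterial toxin MC-RR into the yolk of embryos at the 2 to 4 cell stage. In its vessel assay the control embryos received the saline solution in which the toxin was dissolved. For the controls of the arrays the study does not state what was injected. Total RNA came from whole embryos at 72 hpf (hours post-fertilisation), so all tissues were mixed. The fish facility kept wild-type AB and a line with GFP in the vessels, Tg-(flk:GFP), and the sources used here do not give the line or the number of embryos behind an array. The study describes the 4 as biological replicates, without saying whether they came from separate clutches, and the SD given below is the spread between these arrays. The MC-RR arrays were not described or compared.

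miRNAs are short RNAs that pair with messenger RNAs, mainly through the seed, bases 2 to 8 of the miRNA, and lower the output of those messengers. miRNAs with the same seed form a family and can share targets. In fish larvae many miRNAs are tied to a tissue, such as miR-9 and miR-124 to the nervous system, miR-1, miR-206 and miR-133 to muscle, miR-203 and miR-205 to the skin, and miR-122 to the liver. The miR-430 family is made at the start of zygotic transcription and clears maternal messengers.

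The sequences below are those on the chip for the 5 families with the most signal and for miR-430, which varied most between the control arrays among the families with at least 3 detected members. They are written 5′ to 3′ as listed with the probes, and the capitals mark the seed. Over the shared length, the sequence of miR-203a differed from that of miR-203b by 1 base, as did that of miR-26a from miR-26b, miR-17a from miR-20b and miR-430a from miR-430i, so the probes of such a pair can take up each other's target.
dre-miR-9: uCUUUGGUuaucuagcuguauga
dre-miR-206: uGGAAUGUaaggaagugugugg
dre-miR-1: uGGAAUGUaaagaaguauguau
dre-miR-20a: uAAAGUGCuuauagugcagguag
dre-miR-20b: cAAAGUGCucacagugcagguag
dre-miR-17a: cAAAGUGCuuacagugcaggua
dre-miR-93: aAAAGUGCuguuugugcaggua
dre-miR-203b: gUGAAAUGuucaggaccacuug
dre-miR-203a: gUGAAAUGuuuaggaccacuug
dre-miR-26a: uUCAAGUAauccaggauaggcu
dre-miR-26b: uUCAAGUAauccaggauagguu
dre-miR-430a: uAAGUGCUauuuguugggguag
dre-miR-430b: aAAGUGCUaucaaguugggguag
dre-miR-430c: uAAGUGCUucucuuugggguag
dre-miR-430i: uAAGUGCUauuuguuggcguag
dre-miR-430j: aAAGUGCUaucaaauuggggua

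Each zebrafish miRNA had 10 spots per array, labelled with 1 dye, and the scanner intensity of a probe was the mean of its spots in arbitrary units. The median intensity of the zebrafish probes was 251, 294, 375 and 199 on control replicates 1 to 4, and no spot reached the scanner's ceiling of 65535. A spot's value is an average over its pixels, so it does not show whether single pixels of the brightest spots were at the ceiling. Replicate 4 stood apart. Its blank spots had a 95th percentile of 512, against 87.0, 152 and 72.7 on replicates 1 to 3, and their median was 317 over the first rows of the chip and 111 over the last. The Spearman correlation of intensities across the 248 miRNAs was between 0.96 and 0.98 for the pairs without replicate 4 and between 0.89 and 0.92 for the pairs with it. These correlations are across miRNAs, which share probes and base composition and are not independent replicates. The number of arrays, 4, limits the precision of every value. The main results that rest on replicate 4 are given with and without it, but the shares of the tissue lists only over all 4 arrays.

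A miRNA counted as above the blanks on an array if its intensity was over the 95th percentile of that array's blank spots, and as detected if this held on at least 3 of the 4 arrays. Of the 248 miRNAs, 152 or 61.3% were detected, 70 of them on all 4 arrays and 82 on 3. Of the rest, 39 were above the blanks on 2 arrays, 8 on 1 array and 49 on none. The count per array was 192, 152, 197 and 71 on replicates 1 to 4. The limits of replicates 2 and 4 were 152 and 512. Leaving out cel-miR-90, the worm miRNA probes on the chip reached 85.4 and 43.3 there. A miRNA that missed the limit on these arrays could therefore still be brighter than those probes. The 152 detected miRNAs were the same 152 that passed on replicate 2, and of the 71 that passed on replicate 4, 70 were detected. Without replicate 4, and with 2 of 3 arrays asked for, 191 were detected. The limit was close for a few. dre-miR-150, a miRNA of lymphocytes, had 113, 155, 132 and 82.1 on replicates 1 to 4, and dre-miR-181a* had 209, 155, 208 and 259. On the array that decided, these lay at 1.02 and 1.01 times the limit. Just under it were dre-miR-190b at 0.982 times and dre-miR-2188* at 0.975 times the limit. The 49 miRNAs above the blanks on no array had no signal distinguishable from them at this background, which does not show that they were absent. The 39 and the 8 did exceed the limit on 2 arrays or 1 array, too few to count as detected.

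Signal was concentrated in few miRNAs. For the levels given here, intensities were corrected for background, brought to the log2 scale and normalized between the 4 arrays, and a share is the part of the corrected signal of all zebrafish miRNAs on the same array. Probes bind their targets with unequal strength, so ranks and shares are of probe signal and not of molecules. The 10 brightest miRNAs held 40.4% ± 4.41 of the signal (SD, n = 4 arrays) and the 15 brightest 48.4% ± 3.95. Depending on the array, 14 to 19 miRNAs held 50% of the signal and 69 to 86 held 90%. The 96 miRNAs that were not detected held 1.95% on average, and between 1.23% and 3.43% over the arrays. The mean log2 signal ran from 15.31 for dre-miR-9 to 5.95 for dre-miR-723*, with a median of 8.18.

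**Figure D1:**
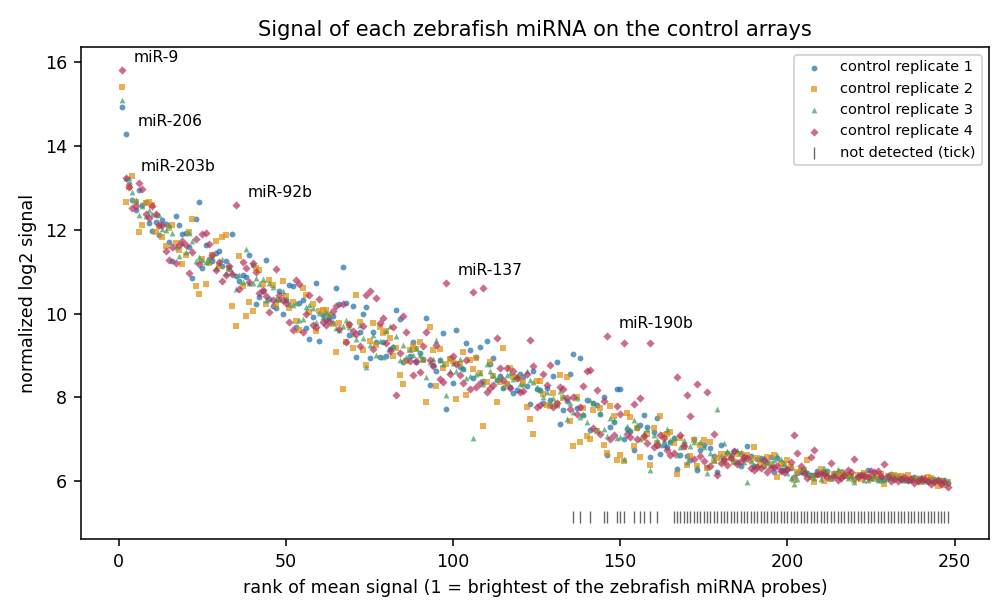
Normalized log2 signal of each of the 248 zebrafish miRNAs on the 4 control arrays (points, 1 colour per array) against the rank of its mean signal, with grey ticks for the 96 that were not detected. The curve falls steeply from dre-miR-9 at 15.31, and single points of replicate 4 stand above the curve at middle and low ranks.

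dre-miR-9, which keeps neural progenitors in balance between division and differentiation, was the brightest miRNA on every control array. Its intensity was 40687, 32118, 48177 and 40228 on replicates 1 to 4, which gave a normalized log2 signal of 15.31 ± 0.39. The intensity on replicate 4 was within the range of the other arrays although the median probe was dimmest there, so the normalized value of replicate 4, 15.81, was the highest and the SD without it was 0.15. dre-miR-9*, from the other arm of the same hairpin, also stood among the 15 brightest, at rank 10 and 12.37 ± 0.28. The RefSeq table of zebrafish genes lists 7 genes for miR-9, and the chip cannot tell them apart.

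The second brightest was dre-miR-206, a miRNA of skeletal muscle, with 22514, 5823, 13792 and 6071 on replicates 1 to 4. In intensity, replicate 1 was the highest and replicates 2 and 4 were alike, though the median probe was dimmer on replicate 4. On the normalized scale, dre-miR-206 was lowest on replicate 2. Its log2 signal was 13.35 ± 0.67, the largest SD among the 15 brightest, and its rank was between 2 and 8. dre-miR-1, its partner in seed and a miRNA of skeletal and heart muscle, had 8578, 3771, 7597 and 5473. Its log2 signal was 12.59 ± 0.54, and by mean signal it had rank 6. By contrast, the skin miRNA dre-miR-203b was steady at rank 3, with 13.08 ± 0.10 and ranks of 2 to 4. Its near-identical partner dre-miR-203a followed at rank 7 with 12.56 ± 0.35. dre-miR-26a and dre-miR-26b, which are present in many tissues, had ranks 4 and 9, with 12.85 ± 0.33 and 12.40 ± 0.22. dre-miR-20a, dre-miR-20b and dre-miR-17a, of the clusters tied to cell proliferation, had ranks 5, 11 and 13, and the log2 signal of dre-miR-20a was 12.60 ± 0.11.

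The remaining places among the 15 were taken by dre-miR-199* at rank 8 (12.50 ± 0.18), a miRNA of mesenchyme, dre-miR-125a at rank 12 (12.11 ± 0.20), the vertebrate relative of the worm timing miRNA lin-4, dre-miR-205 at rank 14 (11.81 ± 0.30), a miRNA of stratified epithelium, and dre-miR-181c at rank 15 (11.79 ± 0.37). Within this set the order was clear only for dre-miR-9. The neighbouring means from rank 4 to rank 10 lay between 12.85 and 12.37, and steps between neighbours there were smaller than the SD of at least 1 of them. The lowest rank that any of the 15 took on any array was 26. Of the 10 brightest on each array, 5 were shared by all arrays, and of the 20 brightest, 13 were shared and 31 appeared on at least 1 array. In the normalized table deposited with the series, the same 15 miRNAs were the 15 brightest.

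**Figure D2:**
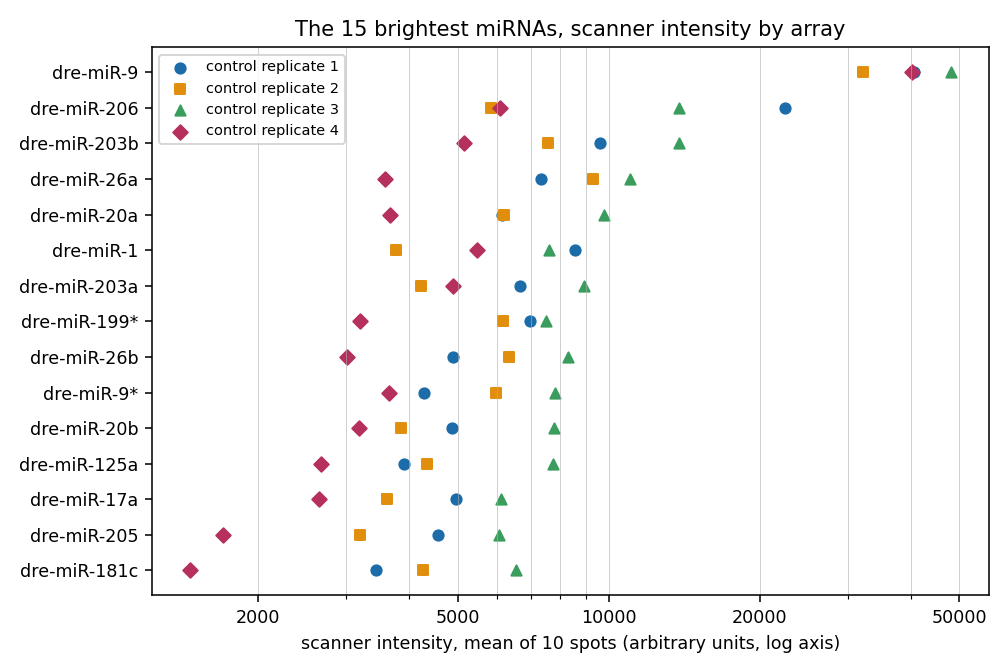
Scanner intensity (mean of 10 spots, log axis) of the 15 brightest miRNAs, 1 point per control array, with the brightest at the top. dre-miR-9 lies between 32118 and 48177 on every array and apart from the others, whereas dre-miR-206 spreads from 5823 to 22514.

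Grouped by seed, the 248 sequences fell into 157 groups, of which 114 held 1 probe and 43 held at least 2. No member was detected for 68 of the seeds. The 8 leading seeds held over 50% of the signal, the 5 leading seeds 39.9% and the 10 leading seeds 57.8%. The miR-9 seed, with 1 probe, led on average with 16.1% ± 4.53 of the signal. Its shares were 15.2%, 13.0%, 13.5% and 22.8% on replicates 1 to 4, and 13.9% on average without replicate 4. The muscle seed of miR-1 and miR-206 came next with 6.97% ± 3.26, at 11.6%, 3.85%, 5.98% and 6.51%. Replicate 1 was the highest and replicate 2 the lowest.

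The family of miR-17a, miR-20a, miR-20b and miR-93 held 6.11% ± 0.49 of the signal, with no array under 5.68% or above 6.76%. Nearly all of it came from its 3 bright members. dre-miR-93 had 928, 527, 610 and 848, rank 74 by mean signal and an SD of 0.90, with replicates 1 and 4 above replicates 2 and 3. The miR-203 family held 5.70% ± 0.69 and the miR-26 family 4.98% ± 1.13. miR-26 was highest on replicate 2, at 6.32%, and lowest on replicate 4, at 3.70%. The miR-125 family, with 3 probes, held 4.32% ± 1.28, and on the normalized scale all 3 of its members were lowest on replicate 1. The order of these 6 leading families was the same without replicate 4.

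The following families were close to one another. The seed shared by miR-25, miR-92a, miR-92b and miR-363 held 3.69% ± 0.71, the miR-430 family 3.68% ± 1.85 and the miR-181 family 3.64% ± 1.30, and without replicate 4 miR-181 came before the other two. The epithelial group of miR-200b, miR-200c, miR-429 and miR-429b held 2.58% ± 0.44 and the miR-10 family of the Hox clusters 2.49% ± 0.33. The seed with the most probes, let-7, had 10, of which 5 were detected. Its brightest member, dre-let-7a, had 745, 450, 677 and 318 and rank 84 by mean signal, while dre-let-7h was near the blanks at 83.8, 83.6, 61.4 and 40.8. let-7 miRNAs are known to accumulate late in development in animals.

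**Figure D3:**
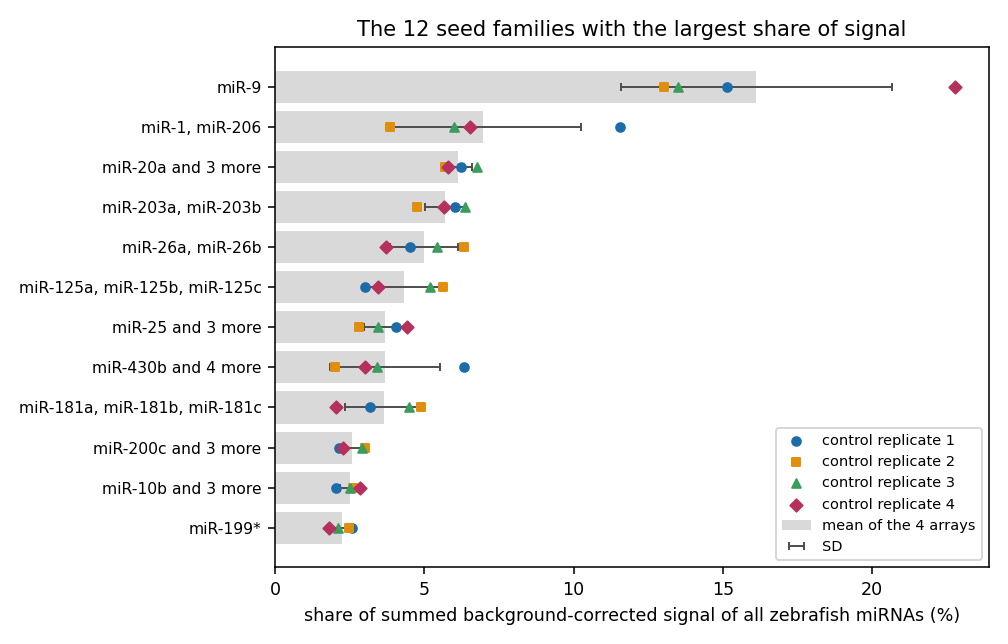
Share of the summed background-corrected signal of all zebrafish miRNAs, in percent, for the 12 leading seed families (bars: mean of 4 arrays; error bars: SD; points: arrays). The miR-9 bar reaches 16.1%, well above that of the muscle family at 6.97%, and the points of the muscle and miR-430 families spread widest relative to their means.

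The miR-430 family had signal at 72 hpf in every control sample. All 5 of its probes were detected, where 61.3% of all zebrafish miRNAs were, and on the normalized scale all 5 were highest on replicate 1. On that array the deviation from the mean of the 4 arrays rose with the share of G in the miRNA. The Spearman correlation was 0.46 over the detected miRNAs, and what part this had in the family's values was not tested. dre-miR-430a had 6426, 1492, 3870 and 1354 on replicates 1 to 4, dre-miR-430b 4857, 1708, 3646 and 2058, and dre-miR-430j 3601, 1278, 3015 and 1151. The order of the arrays in intensity was similar for the 3 probes, with replicates 1 and 3 above replicates 2 and 4. The median probe was dimmest on replicate 4, and on the normalized scale replicate 2 was the lowest for 4 of the 5 members. dre-miR-430i had 1858, 356, 1209 and 704, and dre-miR-430c was the dimmest with 511, 389, 606 and 160. On replicate 4 dre-miR-430c was thus under the blank limit of that array, 512. The family's share was 6.32%, 2.01%, 3.41% and 2.996% on the 4 arrays. The median SD of its members was 0.70, the largest among the 17 seeds with at least 3 detected members, where it ranged down to 0.16 for the family of miR-130, miR-301 and miR-454. Over their shared length miR-430a and miR-430i differ by 1 base, as do miR-430b and miR-430j, so the values of such a pair are not independent measurements.

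Across the 152 detected miRNAs, the median SD between the control arrays was 0.33 on the log2 scale, a fold of 1.26, and the quartiles were 0.21 and 0.48. The highest array lay 1.70-fold above the lowest for the median miRNA. An SD over 1 was found for 5 miRNAs and one under 0.1 for 7. The SD between arrays exceeded the standard error over the spots of a probe for 151 of the 152 miRNAs, and the median ratio was 6.18. The spot errors were taken from log2 intensities before background correction and normalization. Spots of 1 array share its labelling and hybridization, so the ratio cannot tell spread between embryos from technical spread between arrays. The spread did not rise or fall steadily with the level, and it was lowest for the dimmest miRNAs, where the offset added before the log compresses differences. With the detected miRNAs split by level into 4 bins of 38, from the dimmest to the brightest, the median SD was 0.26, 0.36, 0.38 and 0.33. Without replicate 4 the median SD was 0.26, and 2 miRNAs were over 1.

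**Figure D4:**
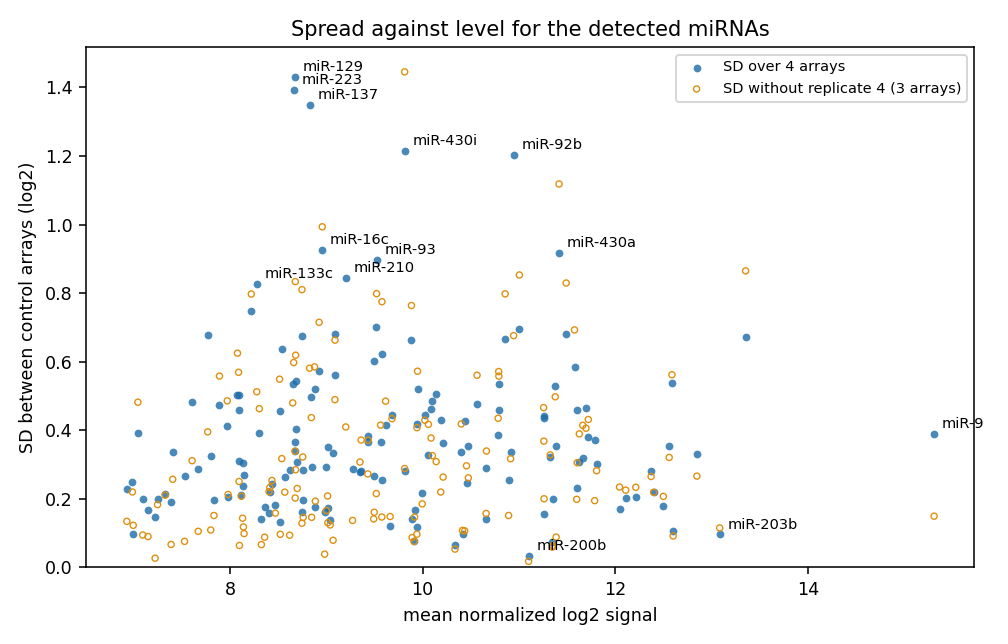
SD between the control arrays (log2) against mean normalized log2 signal for the 152 detected miRNAs (filled: 4 arrays; open: without replicate 4). dre-miR-129 is the highest at 1.43 and dre-miR-200b the lowest at 0.03, and the open points of dre-miR-129, dre-miR-223, dre-miR-137 and dre-miR-92b lie well below the filled ones.

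The 10 miRNAs with the largest SD were of 2 kinds. The first had a normalized value on replicate 4 far from those of the other arrays. dre-miR-129, a miRNA of the brain, had 286, 486, 174 and 949 on replicates 1 to 4, with an SD of 1.43 and 0.83 without replicate 4. dre-miR-223, a miRNA of neutrophils and other myeloid cells, had 270, 193, 438 and 1022, with an SD of 1.39 and 0.60 without replicate 4. For both, replicate 4 was the highest. On that array the blanks were bright and the median probe was dim. dre-miR-137, another brain miRNA, had 176, 534, 366 and 1089 (SD 1.35, and 0.58 without replicate 4), and dre-miR-92b had 1812, 921, 2269 and 3659 (SD 1.20, and 0.68 without it). dre-miR-133c, of the muscle miR-133 family, had 189, 209, 450 and 425, with an SD of 0.83 and 0.51 without replicate 4. dre-miR-210, which responds to low oxygen in vertebrates, went the other way on that array, with 860, 703, 1021 and 147, and its SD was 0.84, or 0.41 without replicate 4. Its value on replicate 4 was under the blank median of that array, 179, and that of dre-miR-133c was under the blank limit of 512, so neither passed that limit. Both were brighter than the worm miRNA probes other than cel-miR-90, which did not exceed 43.3 on that array. The second kind kept its spread without that array, and with dre-miR-129 these were the 5 of the 10 that remained among the 10 largest without it. It held dre-miR-430i (SD 1.22, and 1.45 without replicate 4), dre-miR-430a (0.92 and 1.12), dre-miR-16c (0.93 and 0.99) and dre-miR-93 (0.90 and 0.80). For dre-miR-16c, of the miR-15 and miR-16 family that restrains the cell cycle, the intensities were 746, 287, 505 and 463. The last of these was also under the blank limit of 512 on replicate 4. Of the 10 miRNAs, 9 were also among the 10 with the largest SD in the deposited normalized table.

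At the other end, the 10 steadiest miRNAs had SDs of up to 0.12. dre-miR-200b, a miRNA of epithelia, had 2052, 2370, 3279 and 1319, and its normalized log2 signals were 11.06, 11.09, 11.11 and 11.14, an SD of 0.03. dre-miR-200c, 1 base away, had an SD of 0.07 at a log2 signal of 11.35. dre-miR-23b and dre-miR-23a, which come from clusters with miR-24 and miR-27, had SDs of 0.06 and 0.08. The other members of the 10 were dre-miR-203b, dre-miR-182 of the sensory organs, dre-miR-150 of lymphocytes, dre-miR-20a, dre-miR-222, which is made in vessels among other tissues, and dre-miR-451 of red cells. This set was less firm than that of the most variable. The deposited table shared 4 of the 10, and 4 were among the 10 smallest without replicate 4, namely dre-miR-200b, dre-miR-200c, dre-miR-23a and dre-miR-23b. dre-miR-150 was near the blanks, where the offset added before the log compresses differences.

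Lists of miRNAs known from a tissue or a few tissues, and a list of those of the Hox clusters, were laid beside the whole set. Of the whole set, 61.3% were detected. Of the nervous system list, 13 of 15 were detected and held 23.2% ± 4.66 of the signal, from dre-miR-9 to dre-miR-132* at rank 244. Most of that was miR-9, whose own share was 22.8% on replicate 4 and 13.9% on average without it. The share of the list ran from 20.5% to 30.2% over the arrays. dre-miR-124, a miRNA of differentiated neurons, had 1102, 1812, 1380 and 433 and rank 55 by mean signal. Of the epithelium and skin list, all 10 were detected, with 10.8% ± 1.04 of the signal and ranks from 3 for dre-miR-203b to 142 for dre-miR-203b*. Of the muscle list, 6 of 8 were detected, with 8.51% ± 2.87, from dre-miR-206 to dre-miR-133b* at rank 219. The share of the muscle list varied between 5.67% and 12.5% over the arrays, that of the skin list between 9.64% and 12.1%.

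Smaller shares belonged to other lists. The list for cartilage and smooth muscle, 6 of 6 detected, held 2.87% ± 0.48, from dre-miR-199* to dre-miR-140, a cartilage miRNA, at rank 125 with 239, 383, 395 and 124. The Hox cluster list held 2.79% ± 0.25. There dre-miR-10b, with 2474, 2523, 3617 and 1896, led at rank 27 and dre-miR-10d* was last at rank 161, and 5 of 10 were detected. All miR-10 guide strands were detected, whereas miR-196a, miR-196b, miR-196c and miR-196d each exceeded the blanks on 2 arrays and were not. The arrays they missed were replicates 2 and 4, which had the brightest blanks. dre-miR-196d had 133 and 153 there. Each miR-196 probe was brighter on these arrays than the worm miRNA probes other than cel-miR-90, which reached 85.4 and 43.3. The list for liver, gut and pancreas had 7 of 8 detected and 1.49% ± 0.51. Its brightest was the pancreatic dre-miR-217 at rank 52 with 1418, 1426, 1734 and 451, its dimmest dre-miR-194b at rank 171, and the hepatocyte miRNA dre-miR-122 had rank 131 with 370, 262, 289 and 136.

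For vessel endothelium, 3 of 4 were detected and held 1.45% ± 0.29. dre-miR-126, which acts in endothelial VEGF signalling, had 2730, 3616, 3225 and 1242 and rank 29, and dre-miR-126* had rank 173. For lens and eye, both probes were detected with 1.19% ± 0.35. The lens and retinal pigment miRNA dre-miR-204 had 1749, 1094, 4390 and 1297, with replicate 3 the highest, and dre-miR-184 had 1445, 1313, 1757 and 518. For sensory organs, 3 of 4 were detected with 0.896% ± 0.13, from dre-miR-182 at rank 48 to dre-miR-182* at rank 185. Blood cells had the lowest share, 0.566% ± 0.24, from 0.335% to 0.908% over the arrays. dre-miR-223 alone held 0.563% on replicate 4, against 0.078%, 0.056% and 0.112% on replicates 1 to 3. Of the 8 probes, 3 were detected. Of these, dre-miR-451 of red cells had 598, 1012, 1196 and 510 and rank 69. Both strands of miR-142a, miR-142b-5p, miR-144 and miR-155 exceeded the blanks on no array, and dre-miR-142b-5p was the dimmest at rank 240. Each list thus had detected members. With 61.3% of all probes detected this was likely for any list, so it does not test the label of a whole embryo. Fewer cells of a type and less miRNA per cell cannot be told apart in such samples.

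Neighbouring miRNA genes did not always move together over the arrays. Genes within 10 kb of one another in the RefSeq table of zebrafish genes, which held 243 of the 248 miRNAs, were taken as neighbours. The gut miRNAs dre-miR-192 and dre-miR-194a, which are such neighbours, had the same order of arrays, with 417, 1668, 967 and 432 for the first and 253, 974, 645 and 286 for the second. In the cluster of miR-17a, miR-18a, miR-19a, miR-20a, miR-19b and miR-92a, the mean log2 signals ran from 8.36 for dre-miR-18a to 12.60 for dre-miR-20a. On the normalized scale 5 of these 6 were highest on replicate 1, the exception being dre-miR-20a. Other neighbours differed. dre-miR-206 was highest on replicate 1, where dre-miR-133b, with 590, 1231, 1725 and 822, was lowest. Deviations on replicate 1 varied with the base content of the miRNA, and dre-miR-206 is rich in G. What part this had in the orders of arrays given here was not tested. dre-miR-451 was detected, and its neighbour dre-miR-144 was at 79.2, 78.0, 60.7 and 43.4, under the blank limit on every array.

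The star strands, which the chip's names mark as the minor arm of a hairpin, were dimmer as a class. Of 32 star probes, 10 were detected, compared with 142 of the 216 other probes, and their median rank was 179, against 114.5 for the others. Star probes among the 15 brightest were dre-miR-9* and dre-miR-199*. dre-miR-199* stood at rank 8, and its other arm dre-miR-199 had rank 102 and a log2 signal of 8.75 ± 0.16. dre-miR-140* at rank 107 also stood above dre-miR-140, with 8.68 ± 0.34 and 8.15 ± 0.27 and a higher intensity on each of the 4 arrays, though these are different probes.

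Some probes were much brighter on replicate 4 than on the other arrays. Including the 99 customer-defined probes, 18 of 347 probes were more than 2-fold brighter on replicate 4 than the median of the other control arrays, although the median zebrafish probe was dimmest there. They were 13 zebrafish probes and 5 customer-defined ones, and the 2-fold limit was chosen after the values were seen. Among them was the worm probe cel-miR-90, which has no listed zebrafish target, with 679 on replicate 4 and 78.1, 89.96 and 58.0 on replicates 1 to 3. The other 12 worm probes did not exceed 43.3 on replicate 4. dre-miR-27c* reached an intensity of 1011 there through 1 spot of 9785, while its second brightest spot was at 40.1. dre-miR-129, dre-miR-223, dre-miR-137, dre-miR-92b and dre-miR-133c were also among the 18, so their large SD moved with this array, and what part its background had in these values was not tested.

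**Figure D5:**
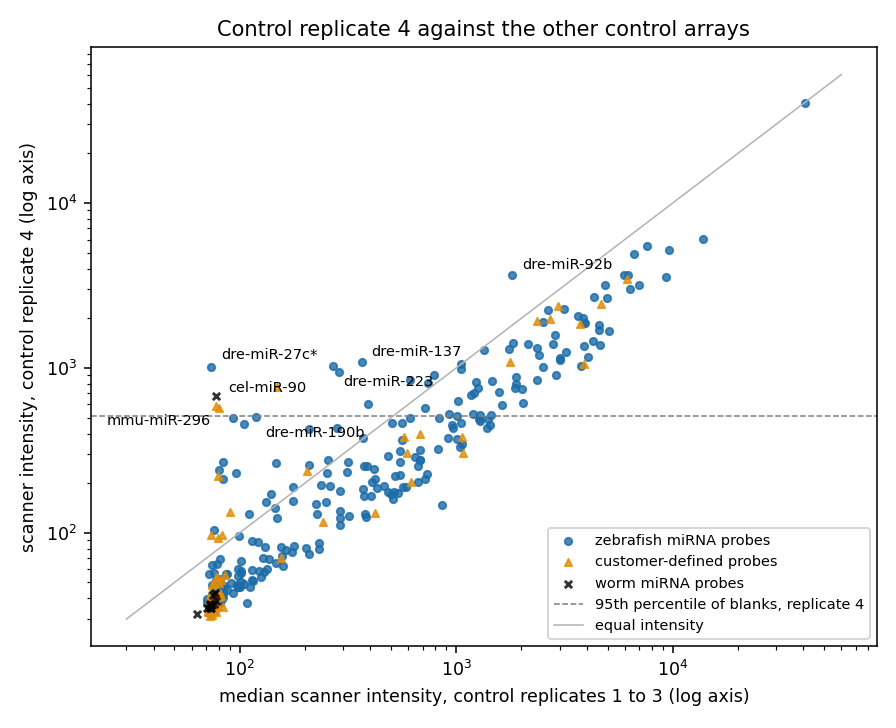
Scanner intensity on control replicate 4 against the median of control replicates 1 to 3 for the zebrafish, customer-defined and worm probes, both axes logarithmic, with the line of equal intensity and, dashed, the 95th percentile of the blanks on replicate 4 at 512. Most dim probes lie below the line, whereas cel-miR-90 at 679, dre-miR-223 at 1022 and dre-miR-137 at 1089 lie above it.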

How the data were processed

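Only the 4 control arrays were described, and the MC-RR arrays entered 1 alternative normalization. Per the labels and the authors' methods, small RNA was size-selected, tailed with poly(A), tagged and stained with Cy5 on a microfluidic chip, 1 array per sample. The deposited scanner files hold, for every spot, a linear intensity averaged over its pixels that was neither background-subtracted nor normalized. The deposited normalized table, in which the authors give background-subtracted and LOWESS-normalized intensity values, served as a check. Its columns followed the scanner output of their arrays with a Spearman's rho of at least 0.9986 across miRNAs, its medians for zebrafish miRNAs were 194, 193, 199 and 181 on replicates 1 to 4, and its scaling between arrays is not otherwise known.

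In R 4.3.3 with limma 3.58.1, all spots were background-corrected by normexp (offset 50) and taken to log2, the mean of the 10 spots was formed, and cyclic loess on the 248 zebrafish miRNAs brought the arrays to a common scale. The offset compresses differences between dim miRNAs. Shares used normexp values less the offset, within an array. The spread statistic was tested on simulated data with the same even background on every array. That test therefore does not cover the bright and uneven blanks of replicate 4. No groups were compared and no p-value was computed. Tissue lists came from general knowledge, and neighbouring genes from a RefSeq table of the assembly GRCz12tu.

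miRNAs named were the 15 brightest, the members of the 5 leading families, the 10 with the largest and the 10 with the smallest SD, the brightest and dimmest of each tissue list, and the 2 on either side of the detection limit. Other miRNAs and the family miR-430 were named after their values were seen. The members, lists and rules were chosen with earlier results of these data known. Alternatives covered the detection rule, background correction, offset, normalization, summary of spots, the deposited table, and omission of each array. The files name no slide, so none was used as a block.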

Additional observations from a re-analysis of the deposited data

Results flagged for a closer look

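Among the named miRNAs, 3 had 1 array that stood far from the other 3 relative to their range, each time replicate 4. dre-miR-190b had a log2 signal of 9.47 on replicate 4, against 6.62, 6.69 and 7.08 on replicates 1 to 3. dre-miR-126* had 8.31 on replicate 4, against 6.28, 6.37 and 6.33. dre-miR-133b* had 6.23 on replicate 4 against 6.12 on each of the others, and it was under the blank limit on every array. On replicate 4 the intensities of dre-miR-190b, 503, and dre-miR-126*, 241, were also under that array's limit of 512. Chance marks about 1 in 20 groups in this way. Over all 248 zebrafish miRNAs, 21 or 8.47% were so marked, and 15 of the 21 on replicate 4.

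The worm probe cel-miR-90, which lay outside the zebrafish measurement, had an intensity of 679 on replicate 4, above the 95th percentile of the blanks there, 512, and was at 78.1, 89.96 and 58.0 on replicates 1 to 3. Its spots on replicate 4 ranged from 296 to 996, so the value did not come from a single spot. The cause was not tested.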

How the results depend on the processing

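The number of detected miRNAs, 152, was 70 if all 4 arrays were asked for, 191 with 2 arrays, 145 with the blank median plus 3 median absolute deviations, 199 with the highest worm probe as the limit and 200 with the worm spots without cel-miR-90, a limit chosen after the data were seen. With each array left out in turn it was between 152 and 191. The median SD, 0.33, was 0.41 with median scaling, 0.61 with no normalization, 0.44 on the deposited table and 0.26 without the filter on dim miRNAs, and between 0.26 and 0.38 with each array left out. With quantile normalization, other offsets, the median of the spots or all 8 arrays in the normalization it was between 0.33 and 0.40. The median rank correlation, 0.94, was 0.90 over detected miRNAs only and between 0.90 and 0.98 with each array left out. The share of the 10 brightest, 40.4%, was between 38.9% and 43.6% under other background corrections and the deposited table, and between 39.1% and 42.2% with each array left out. miR-9 led in each of these settings, with 13.9% to 18.2%. Of the 52 named miRNAs, the SD moved by over 1.5 times for 18 without replicate 4, 12 without replicate 1, 10 without replicate 2 and 1 without replicate 3, for 31 with no normalization, 21 with median scaling, 19 on the deposited table, 9 with quantile normalization and 4 with an offset of 16. No paired analysis was possible because only 1 group was described and no result comes from a test.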

Other observations

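The deviation of an array from the mean of the 4 varied with the base content of the miRNA, an observation made after the values were seen. Over the 152 detected miRNAs, the Spearman correlation with the share of G was 0.46 on replicate 1 and -0.27 on replicate 4, and with the share of C it was -0.42 on replicate 1 and 0.30 on replicate 2. On replicate 1, the 61 miRNAs with at least 27.3% G had a median deviation of 0.19 on the log2 scale and the 79 with at most 22.7% G one of -0.13. These correlations are across miRNAs, which share a library and related sequences. What part base content had in the families highest or lowest on replicate 1, such as miR-430 and miR-125, was not tested. The run CCC was present in the sequences of 9 of the 18 probes over 2-fold brighter on replicate 4, against 16.7% of the other 329 probes and 18.4% of all 347. The run CCCC, which contains CCC, was present in 5 or 27.8% of the 18, against 2.13% of the others and 3.46% of all. The motifs were read on the listed strand only and chosen after the values were seen. Among the probes with CCC was dre-miR-27c*, whose value on replicate 4 came from 1 spot. The 18 also held dre-miR-126* and the customer-defined probe of the same sequence, so they are not all separate sequences.

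For 5 miRNAs the customer-defined set held a probe of the same sequence as the zebrafish set, namely dre-miR-126*, dre-miR-181a, dre-miR-181a*, dre-miR-9* and dre-miR-92a. The log2 scanner intensities of the 2 probes, neither background-corrected nor normalized, differed by at most 0.13 on any array.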
